A study of Homo sapiens with 11 samples.

Results

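The 151 RNAs described here are the expressed members of the LINC class of long noncoding RNAs in the human acute myeloid leukemia (AML) cell line MOLM-13, which carries a KMT2A rearrangement. They were chosen by symbol and by measured level, as all rows of the count table named LINC plus digits whose mean over 11 libraries was at least 0.5 CPM (counts-per-million of the column total), with 1 symbol left out by the rule. They made up 151 of 38557 annotated genes and 151 of 2110 LINC rows, of which 954 had a count in some library and 1156 had none. To ask how these RNAs responded to inhibition of Menin, alone or with inhibition of the immunoproteasome, 3 groups of libraries were compared. Cells had been treated for 72 h with the solvent DMSO (4 libraries), with 1 µM MI-503, a Menin inhibitor (4 libraries), or with 1 µM MI-503 plus 100 nM PR-957 (ONX-0914), an inhibitor of the immunoproteasome subunit PSMB8 (3 libraries, replicates 1, 2 and 4, called the combination). PR-957 alone was not analysed here, and all groups are 1 cell line. The labels do not say that replicates were separate cultures, so p-values measure the spread between these libraries, which may be technical.

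LINC is the symbol stem given to long intergenic RNAs that encode no known protein and lack a better name. Most such RNAs are made by RNA polymerase II, and many are spliced and polyadenylated, which is what allows a library of polyadenylated RNA to hold them. They are typically less abundant and more restricted to a cell state than messenger RNAs. A few act on the gene next to them, others act away from their locus, and for most no function is known. Menin tethers KMT2A complexes to chromatin, and the immunoproteasome is the form of the proteasome found mainly in cells of the blood system.

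Totals ran from 18891243 to 41153974 counted fragments per library, and every member had at least 1 count in each library, with a median count per member of 36 to 95. The myeloid genes SPI1 (211 to 344 CPM) and CD33 (32.7 to 44.1 CPM) were expressed throughout, whereas the T cell genes CD3D, CD3E and CD3G together stayed at or under 0.179 CPM and MS4A1, a B cell gene, had 0 counts. The KMT2A targets PBX3, MEF2C and MEIS1 were lower in both treated groups, with log2 fold changes of -2.02, -1.97 and -1.37 for MI-503 against DMSO (each edgeR adjusted p at or under 1.52e-07). Of the 8 myeloid markers, 7 were higher and 1, FLT3, was lower with MI-503 than with DMSO, and 4 were higher and 2, FLT3 and MPO, were lower in the combination than in MI-503. CSF1R and ITGAM had means of 6.30 and 22.2 CPM in DMSO, 34.8 and 55.2 CPM in MI-503 and 57.7 and 71.2 CPM in the combination. Those of FLT3 were 315, 229.7 and 201 CPM, and those of MPO 111, 216 and 135 CPM. The summed level of the 8 markers ran from 1558 to 1613 CPM in DMSO, 1869 to 1994 CPM in MI-503 and 1866 to 2224 CPM in the combination. Whether these shifts had a part in the changes of the LINC RNAs was not tested. In bulk RNA, fewer cells making a transcript and less transcript per cell cannot be told apart.

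The members were mostly rare transcripts. The median of their mean levels was 1.92 CPM, against 20.5 CPM over all 14683 genes tested, and 108 of 151 had a mean under 5 CPM. Per length, as CPM per kilobase of exon (RPKM), the median was 0.856 and 62 members reached 1. The rule used these mean levels, so they are a description only. At its edge, LINC00173, LINC01954 and LINC00345 lay just inside with means of 0.522, 0.515 and 0.510 CPM, and LINC00618, LINC00051 and LINC01372 lay just outside with 0.4995, 0.480 and 0.477 CPM. Of the 151 members, 133 were at or above 0.5 CPM in each group mean and 4 in 1 group mean only.

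Exons of a member covered a median of 2311 bases, and 23 members were a single exon block. Members lay on 23 chromosomes, led by chromosome 1 with 22 and chromosome 2 with 14. By the annotation used for counting, the span of 13 members overlapped a gene on the same strand, that of 43 only genes on the opposite strand, 19 started head to head with another gene within 2000 bases without overlap, and 76 had none of these. Counting ignored strand, so a member and an overlapping antisense gene cannot be told apart where exons coincide. This concerned 29 members with some shared exon bases and 11 with over 10%. Near-identical copies matter too, since fragments that mapped to several places were left out. In 24 members over 10% of the 96-base windows of exon sequence recurred elsewhere in hg38. RefSeq now lists 21 of the 151 symbols as older names of genes with another symbol, among them LINC01578 (CHASERR), LINC00599 (MIR124-1HG) and LINC01534 (ZNF567-DT). The RefSeq gene type of 3 members is protein coding.

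Together the members took up a larger share of all counts in treated cells. The share was 0.0725, 0.0774, 0.0784 and 0.0764% in DMSO, 0.0998, 0.0966, 0.0913 and 0.0951% in MI-503 and 0.100, 0.109 and 0.105% in the combination. No MI-503 or combination library fell within the range of the DMSO libraries. The rule that chose the members used the same counts, which can tilt this share. In the DMSO mean 13 members were under 0.5 CPM, against 5 in the MI-503 mean and 4 in the combination mean. All LINC rows, without a level limit, held 0.0759 to 0.0819% of counts in DMSO. They held 0.0956 to 0.105% in MI-503 and 0.105 to 0.115% in the combination. LINC01000 alone held 13.5% of the counts of all members, and without it the mean shares were 0.0681 ± 0.00217% over 4 DMSO libraries, 0.0830 ± 0.00237% over 4 MI-503 libraries and 0.0874 ± 0.00414% over 3 combination libraries (± SD). The number of LINC rows with a count, thinned to the 18891243 counts of the shallowest library, was 389.6 to 402.9 in DMSO, 406.8 to 439.5 in MI-503 and 453.5 to 501.0 in the combination. Unthinned, it was 406 to 451, 433 to 483 and 501 to 563. These numbers were not taken over all annotated genes, so whether the rise was particular to LINC rows was not tested.

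**Figure D1:**
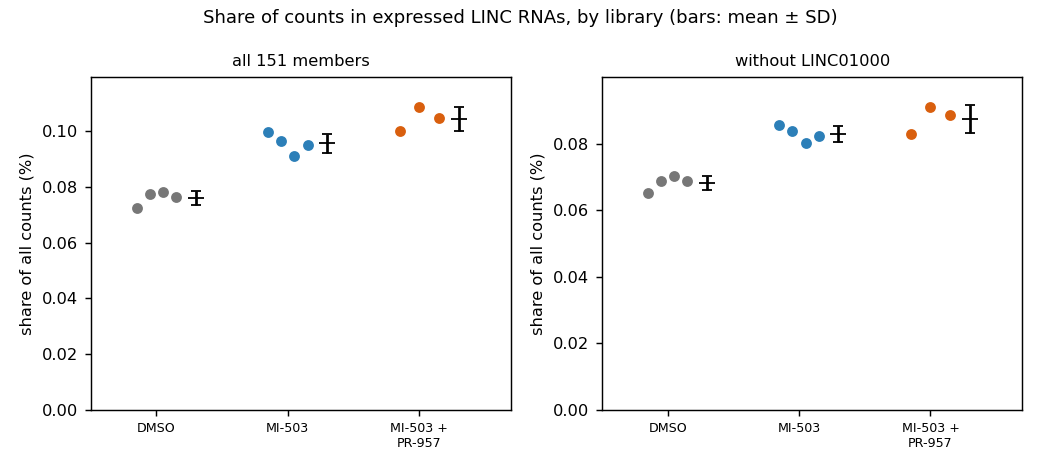
Percentage of all counts that fell in the 151 LINC RNAs (left) and in the 150 without LINC01000 (right), 1 point per library, with mean and SD beside each group. All DMSO points lie below all points of the treated groups in both panels. Members were chosen by their mean level over the same libraries.

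The 10 members with the highest level per length ran from 6.47 to 18.0 RPKM. LINC00926 (chr15:57300365-57307769, plus strand) led with a mean of 18.0 RPKM, followed by LINC01578 with 15.6, LINC01000 with 11.9, LINC01089 with 11.9 and LINC00667 with 10.3 RPKM. LINC01388, LINC00963, LINC01138, LINC01003 and LINC00342 followed with 9.13, 8.53, 8.29, 7.10 and 6.47 RPKM. Their patterns over the 3 groups differed.

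LINC01000 (chr7:128641241-128660998, plus strand), with the most counts, rose with each added treatment. CPM are given from here on over TMM-scaled library totals, and changes as log2 fold changes. It stood at 78.4, 90.4, 85.0 and 78.6 CPM in DMSO, 141, 129, 114 and 126 CPM in MI-503 and 169, 169 and 158 CPM in the combination. The 3 groups did not overlap, and the log2 fold change was 0.62 (SE 0.06, edgeR adjusted p = 2.88e-07) for MI-503 against DMSO and 0.37 (SE 0.06, edgeR adjusted p = 0.000125) for the combination against MI-503. Of its exon windows, 32.2% recur in the genome. LINC01388 (chr9:100993-114246, minus strand), with 33.5% of its windows recurring, went down instead. Its levels were 63.9, 67.0, 63.0 and 67.0 CPM in DMSO, 55.6, 58.7, 51.1 and 56.5 CPM in MI-503 and 45.4, 49.2 and 51.3 CPM in the combination. Its change from DMSO was -0.23 (SE 0.05, edgeR adjusted p = 0.00114) with MI-503 and -0.43 (SE 0.06, edgeR adjusted p = 3.75e-06) with the combination.

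LINC01578 (chr15:92882843-92898747, plus strand) is CHASERR, the RNA named for acting on its neighbor CHD2, a chromatin remodeler. It fell with MI-503 and stood higher again in the combination, at 35.5, 34.4, 36.2 and 36.7 CPM in DMSO, 26.4, 24.8, 25.8 and 28.8 CPM in MI-503 and 36.3, 32.5 and 33.0 CPM in the combination. Every MI-503 library lay below every other library. The log2 fold changes were -0.43 (SE 0.06, edgeR adjusted p = 8.15e-06) for MI-503 against DMSO, -0.07 (SE 0.06, edgeR adjusted p = 0.335) for the combination against DMSO and 0.36 (SE 0.06, edgeR adjusted p = 0.000113) for the combination against MI-503. CHD2, whose span begins 1577 bases away on the same strand, averaged 112 ± 2.71 CPM over 4 DMSO libraries, 96.7 ± 5.27 CPM over 4 MI-503 libraries and 97.9 ± 7.97 CPM over 3 combination libraries (mean ± SD).

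LINC01003 (chr7:152464124-152465545, plus strand) was lower in the combination than in either other group. Its levels were 9.79, 10.2, 10.8 and 9.78 CPM in DMSO, 11.3, 11.3, 12.5 and 11.7 CPM in MI-503 and 6.94, 9.63 and 7.40 CPM in the combination. The combination did not overlap the others. The change was -0.36 (SE 0.10, edgeR adjusted p = 0.00565) against DMSO and -0.57 (SE 0.10, edgeR adjusted p = 0.000208) against MI-503, and 0.21 (SE 0.09, edgeR adjusted p = 0.0705) for MI-503 against DMSO. LINC00963 (chr9:129488660-129513686, plus strand) went the other way, at 14.0, 15.3, 15.9 and 16.8 CPM in DMSO, 16.6, 16.6, 18.8 and 18.6 CPM in MI-503 and 19.3, 21.8 and 24.3 CPM in the combination. It rose by 0.49 (SE 0.09, edgeR adjusted p = 9.01e-05) on the log2 scale against DMSO and by 0.30 (SE 0.09, edgeR adjusted p = 0.00825) against MI-503. The second call rested on 1 library, since the change was 0.17 without combination replicate 4 (adjusted p = 0.122).

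The changes of LINC00342, LINC01138, LINC01089 and LINC00667 were smaller or less secure. LINC00342 averaged 15.6 ± 0.843 CPM over 4 DMSO libraries, 24.2 ± 1.69 CPM over 4 MI-503 libraries and 20.9 ± 2.18 CPM over 3 combination libraries (mean ± SD), a rise of 0.63 (SE 0.07, edgeR adjusted p = 2.34e-06) with MI-503. LINC01138, with 14.3% of its windows recurring, averaged 14.5 ± 1.49 CPM over 4 DMSO libraries, 19.7 ± 0.579 CPM over 4 MI-503 libraries and 16.8 ± 0.910 CPM over 3 combination libraries (mean ± SD), a rise of 0.44 (SE 0.07, edgeR adjusted p = 7.27e-05) with MI-503. Both were lower in the combination than in MI-503, by edgeR with -0.20 (SE 0.08, adjusted p = 0.0414) and -0.23 (SE 0.08, adjusted p = 0.0207). Those calls were lost for LINC00342 without DMSO replicate 1 or combination replicate 2 or MI-503 replicates 1, 2 or 4 (adjusted p from 0.0512 to 0.12) and LINC01138 without MI-503 replicate 4 (adjusted p = 0.0576), and without combination replicate 1 the value of LINC00342 moved to -0.32 (adjusted p = 0.00146). The call of LINC00342 was also lost with upper-quartile factors, with no filter on low counts and with the compared groups only. LINC01089, which starts head to head with the histone methyltransferase gene SETD1B, averaged 16.2 ± 2.14 CPM over 4 DMSO libraries, 19.8 ± 1.53 CPM over 4 MI-503 libraries and 18.9 ± 1.75 CPM over 3 combination libraries (mean ± SD). It rose by 0.30 (SE 0.09, edgeR adjusted p = 0.0106) with MI-503 and 0.23 (SE 0.10, edgeR adjusted p = 0.0443) with the combination, and LINC01138 by 0.22 (SE 0.08, edgeR adjusted p = 0.0234) with the combination. Calls against DMSO were lost in the combination for LINC01138 without DMSO replicates 1, 2 or 4 or combination replicate 2 (adjusted p from 0.0555 to 0.0796) and LINC01089 without DMSO replicates 1, 2 or 4 or combination replicates 1 or 2 or MI-503 replicates 2 or 4 (adjusted p from 0.05 to 0.143). The call of LINC01089 was also lost with the compared groups only. LINC00667 averaged 38.2 ± 1.17 CPM over 4 DMSO libraries, 41.4 ± 2.12 CPM over 4 MI-503 libraries and 44.4 ± 4.05 CPM over 3 combination libraries (mean ± SD), and passed the test in the combination against DMSO, at 0.21 (SE 0.06, edgeR adjusted p = 0.00708). It did not pass without combination replicate 4 (adjusted p = 0.0596).

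Menin inhibition alone moved more members up than down. Of 151 members, 65 (43.0%) passed the test at an edgeR adjusted p under 0.05, against 51.4% of all 14683 genes tested. Of these, 46 (30.5% of members) were higher in MI-503 than in DMSO and 19 (12.6%) lower, whereas 22.0% of all genes were higher and 29.3% lower. With a change of at least 2-fold as well, 13 members were higher and 1 was lower (4.22% and 1.34% of all genes), of which 10 and 0 were among the 133 members at or above 0.5 CPM in each group mean. For 44 members every MI-503 library lay above every DMSO library, and for 17 every one lay below (21.2% and 29.1% of all genes). The median log2 fold change was 0.22 over the members, -0.03 over all genes and -0.06 over protein-coding genes, and 107 of 151 members were above 0. Among the 133 members at or above 0.5 CPM in each group mean, 41 were higher and 18 lower. The 43 members with a mean of at least 5 CPM gave 17 higher and 9 lower, and the 108 below it 29 and 10. Upper-quartile scaling, which shifted the median of all genes from -0.03 to 0.03, gave 60 higher and 15 lower members, and moved the higher share of calls over all genes from 42.9% to 54.2%.

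**Figure D2:**
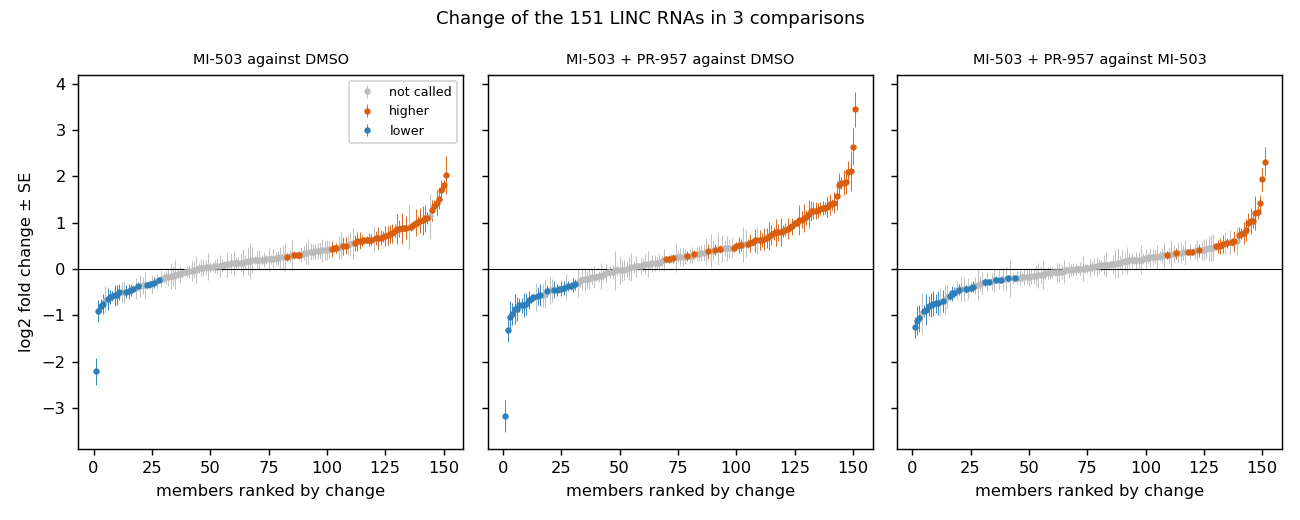
Log2 fold change with SE of each of the 151 LINC RNAs, ranked within each comparison, with members past an edgeR adjusted p of 0.05 coloured by direction. In both comparisons with DMSO more members are called higher (46 and 58) than lower (19 and 25), and the comparison of the treated groups has 24 of each.

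The largest rises with MI-503 were in LINC02705, LINC00926 and LINC00996. LINC00926 stood at 14.6, 19.9, 18.97 and 14.9 CPM in DMSO, 65.5, 64.7, 53.9 and 54.2 CPM in MI-503 and 49.1, 70.0 and 67.2 CPM in the combination. Every treated library lay above every DMSO library, more than 2-fold, and the log2 fold change was 1.81 (SE 0.12, edgeR adjusted p = 3.23e-09). In the combination it was 0.05 (SE 0.12, adjusted p = 0.752) against MI-503 by edgeR. Its nearest tested protein-coding gene TCF12, a helix-loop-helix transcription factor 7770 bases away on the same strand, changed in the opposite direction, by -0.29 (SE 0.05, edgeR adjusted p = 0.000131).

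LINC00996 (chr7:150433654-150448140, plus strand) lies 2490 bases from GIMAP8, a member of a family of immune-cell GTPases, on the same strand. It stood at 1.72, 3.03, 1.57 and 0.902 CPM in DMSO, 6.25, 6.34, 5.20 and 5.65 CPM in MI-503 and 5.93, 9.43 and 8.41 CPM in the combination, with no overlap between DMSO and either treated group. It rose by 1.70 (SE 0.23, edgeR adjusted p = 1.1e-05) with MI-503 and by 2.10 (SE 0.24, edgeR adjusted p = 5.49e-07) with the combination. GIMAP8 itself was rare. It averaged 0.291 ± 0.129 CPM over 4 DMSO libraries, 0.922 ± 0.149 CPM over 4 MI-503 libraries and 1.02 ± 0.397 CPM over 3 combination libraries (mean ± SD), and rose by 1.73 (SE 0.36, edgeR adjusted p = 0.000735) with MI-503. LINC02705 (chr11:60159241-60164400, minus strand) lies 7207 bases from MS4A6A, a membrane protein gene of monocytes and macrophages. Its levels were 0.135, 0.414, 0.190 and 0.0949 CPM in DMSO, 0.741, 0.901, 0.619 and 1.11 CPM in MI-503 and 0.826, 1.71 and 1.53 CPM in the combination. It was under the 0.5 CPM limit in the DMSO mean, and so is a member through its treated libraries. The log2 fold change was 2.03 (SE 0.41, edgeR adjusted p = 0.000515) with MI-503 and 2.63 (SE 0.40, edgeR adjusted p = 1.81e-05) with the combination. MS4A6A averaged 8.83 ± 2.92 CPM over 4 DMSO libraries, 36.6 ± 5.53 CPM over 4 MI-503 libraries and 38.0 ± 8.48 CPM over 3 combination libraries (mean ± SD). It changed by 2.06 (SE 0.18, edgeR adjusted p = 7.76e-08) and 2.10 (SE 0.19, edgeR adjusted p = 3.43e-08).

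The promoter window of LINC00996, 250 bases before to 50 bases after its start (chr7:150433404-150433703, plus strand, RefSeq, GRCh38.p14), is shown as that of a member that rose with Menin inhibition. Capitals mark matches on either strand to any of 6 motifs searched, TGACNNNGC (core of the NRF2 element), CACGTG (E-box), CCGGAAGT (ETS), GAGGAAGT (PU.1), CCAAT (NF-Y) and TTGCNNAA (C/EBP).
LINC00996: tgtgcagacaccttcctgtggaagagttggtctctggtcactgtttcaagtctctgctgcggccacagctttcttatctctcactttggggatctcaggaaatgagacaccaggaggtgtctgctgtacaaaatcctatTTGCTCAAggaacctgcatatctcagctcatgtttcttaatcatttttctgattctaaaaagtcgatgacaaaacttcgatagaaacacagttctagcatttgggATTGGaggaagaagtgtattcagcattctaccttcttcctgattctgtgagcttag
It holds TTGCNNAA, beginning at position -111, and CCAAT, on the opposite strand at -6. Of all 27305 promoter windows of the same length, 10.6% hold the first and 35.7% the second.

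The 5 members LINC02641, LINC01226, LINC01451, LINC00599 and LINC01694 completed the 8 largest rises. The ranking took only called members with all MI-503 libraries above all DMSO libraries, so that separation was set by the rule. LINC02641 (chr10:123347923-123562213, plus strand) has 16 exon blocks and a low level per length (0.102 RPKM). It was at 1.08, 1.06, 0.806 and 1.23 CPM in DMSO, 4.17, 2.35, 2.52 and 3.11 CPM in MI-503 and 3.02, 2.71 and 2.20 CPM in the combination. The rise was 1.51 (SE 0.21, edgeR adjusted p = 1.46e-05). LINC01226 (chr1:31518435-31524245, plus strand) was at 0.371, 0.505, 0.664 and 0.475 CPM in DMSO, 1.81, 1.54, 1.11 and 0.901 CPM in MI-503 and 0.921, 1.25 and 1.30 CPM in the combination, and rose by 1.43 (SE 0.27, edgeR adjusted p = 0.000309). Both stayed high in the combination, with 1.34 (SE 0.22, adjusted p = 5.01e-05) and 1.19 (SE 0.29, adjusted p = 0.00196) against DMSO by edgeR. By column totals, LINC01226 was under 0.5 CPM in the DMSO mean, and so is a member through its treated libraries. LINC01451 (chr9:136612028-136617181, minus strand) went up by 1.27 (SE 0.23, edgeR adjusted p = 0.000167), from 0.776, 0.873, 1.61 and 0.854 CPM in DMSO to 3.01, 2.64, 2.27 and 1.84 CPM in MI-503. Its nearest tested coding gene EGFL7, a secreted protein gene, rose too, by 0.64 (SE 0.06, edgeR adjusted p = 1.81e-07). LINC00599 (chr8:9900064-9903329, minus strand), now MIR124-1HG and thus a host transcript of the microRNA miR-124-1, was at 2.57, 2.71, 3.04 and 2.09 CPM in DMSO, 5.83, 6.34, 5.29 and 4.71 CPM in MI-503 and 6.26, 6.87 and 6.44 CPM in the combination. It rose by 1.10 (SE 0.13, edgeR adjusted p = 2.51e-06) with MI-503 and was 0.22 (SE 0.12, adjusted p = 0.146) in the combination against MI-503 by edgeR. LINC01694 (chr21:45593654-45603056, plus strand) rose by 1.36 (SE 0.13, edgeR adjusted p = 1.73e-07) and stood lower again in the combination, by -0.51 (SE 0.12, edgeR adjusted p = 0.00269). Its levels were 2.30, 2.89, 3.56 and 2.80 CPM in DMSO, 8.10, 7.24, 6.81 and 7.16 CPM in MI-503 and 5.64, 4.92 and 4.72 CPM in the combination. Its combination libraries lay between the other groups, overlapping neither.

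**Figure D3:**
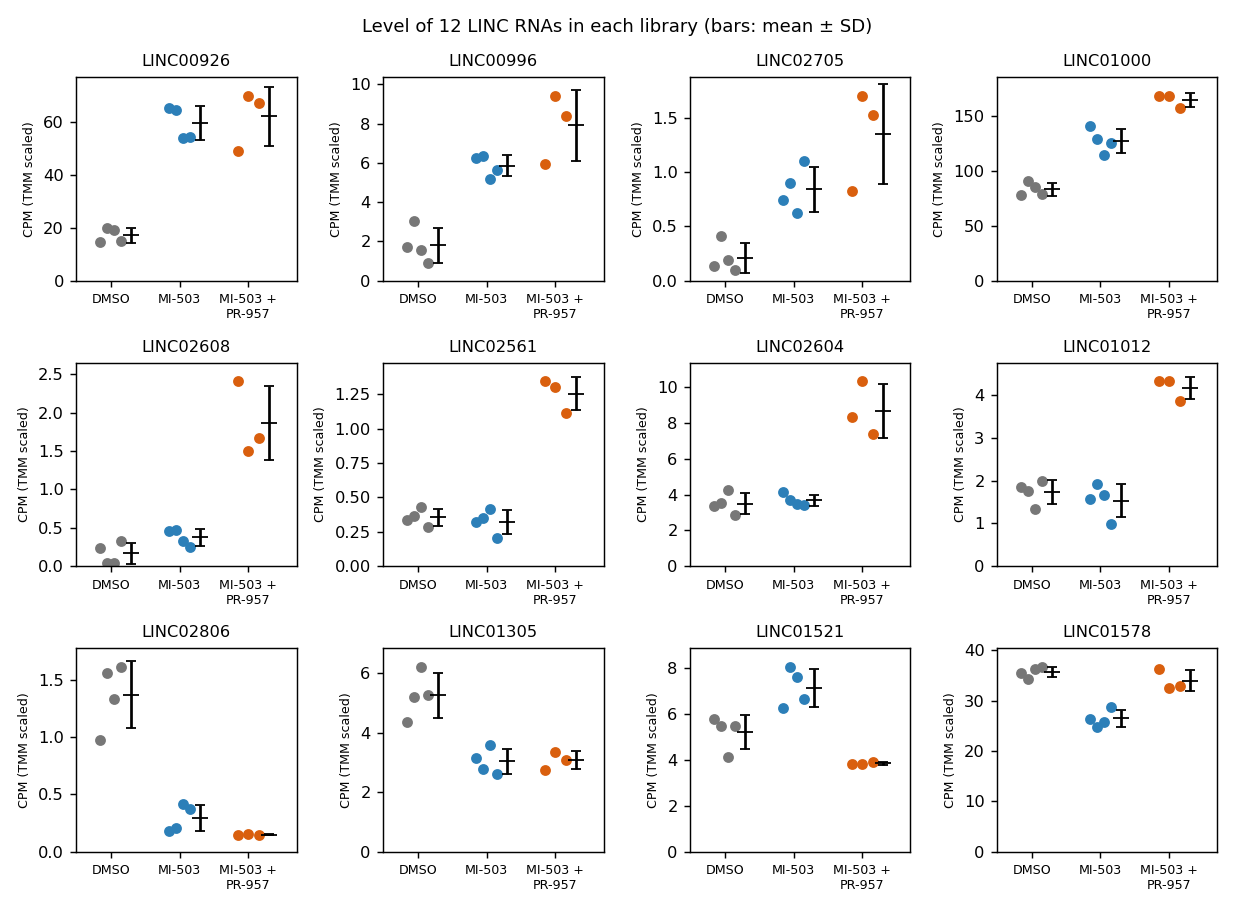
TMM-scaled CPM of 12 LINC RNAs in each library (points; 4 DMSO, 4 MI-503, 3 MI-503 + PR-957), with mean and SD beside each group, each panel on its own axis from 0. LINC00926, LINC00996 and LINC02705 are high in both treated groups, LINC02608, LINC02561, LINC02604 and LINC01012 in the combination, and LINC02806 and LINC01305 are highest in DMSO.

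The one member that fell by 2-fold or more with MI-503 was LINC02806 (chr1:148279045-148297556, plus strand). It stood at 0.979, 1.56, 1.33 and 1.61 CPM in DMSO, 0.185, 0.203, 0.413 and 0.368 CPM in MI-503 and 0.142, 0.151 and 0.149 CPM in the combination. These are 28 to 34 counts per DMSO library and 3 to 10 per treated library. The log2 fold change was -2.21 (SE 0.28, edgeR adjusted p = 5.3e-06) with MI-503 and -3.17 (SE 0.34, edgeR adjusted p = 3.73e-07) with the combination. It was under 0.5 CPM in the means of both treated groups, and so is a member through its DMSO libraries. In the combination against MI-503 it was at -0.96 (SE 0.44, edgeR adjusted p = 0.0865), which did not pass the test. Of its exon bases, 11.8% coincide with exons of other genes. Its promoter window in RefSeq (chr1:148279018-148279317, plus strand) is set on a start 223 bases away from that of the counting annotation. It holds CCAAT at -236 and -204 and TTGCNNAA at -103.
LINC02806: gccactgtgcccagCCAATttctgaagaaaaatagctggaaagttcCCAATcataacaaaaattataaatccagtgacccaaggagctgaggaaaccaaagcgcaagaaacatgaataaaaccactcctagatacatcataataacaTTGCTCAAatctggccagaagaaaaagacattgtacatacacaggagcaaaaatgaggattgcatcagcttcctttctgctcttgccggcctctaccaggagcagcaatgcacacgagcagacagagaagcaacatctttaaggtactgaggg

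Other falls with MI-503 were smaller. LINC00908 and LINC00683 are neighbors on chromosome 18. LINC00908 (chr18:76528655-76559827, plus strand) was at 2.09, 2.25, 1.66 and 1.85 CPM in DMSO, 0.741, 1.22, 1.45 and 1.23 CPM in MI-503 and 1.30, 0.953 and 0.670 CPM in the combination, and changed by -0.75 (SE 0.22, edgeR adjusted p = 0.00833) with MI-503 and -0.96 (SE 0.24, edgeR adjusted p = 0.00195) with the combination. LINC00683 (chr18:76619777-76623559, plus strand) was at 1.01, 1.42, 0.996 and 1.23 CPM in DMSO, 0.648, 0.785, 0.619 and 0.368 CPM in MI-503 and 0.779, 0.702 and 1.04 CPM in the combination, and changed by -0.91 (SE 0.25, edgeR adjusted p = 0.00519) and -0.46 (SE 0.25, edgeR adjusted p = 0.117). Of its exon bases, 18.7% coincide with those of other genes. Their common nearest tested coding gene, ZNF516, changed with MI-503 by -0.43 (SE 0.04, edgeR adjusted p = 3.08e-07).

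LINC01305 (chr2:174326027-174330643, plus strand) lies 4311 bases from SP9, a zinc finger transcription factor, and both fell. LINC01305 was at 4.35, 5.19, 6.21 and 5.27 CPM in DMSO, 3.15, 2.79, 3.59 and 2.62 CPM in MI-503 and 2.76, 3.36 and 3.09 CPM in the combination, and changed by -0.79 (SE 0.14, edgeR adjusted p = 0.000142) with MI-503. SP9 averaged 38.6 ± 3.96 CPM over 4 DMSO libraries, 11.6 ± 0.496 CPM over 4 MI-503 libraries and 10.6 ± 1.32 CPM over 3 combination libraries (mean ± SD), a change of -1.74 (SE 0.08, edgeR adjusted p = 8.09e-11) with MI-503. LINC00899 (chr22:46039907-46044868, minus strand) was at 6.38, 8.78, 7.73 and 8.30 CPM in DMSO, 5.69, 5.70, 3.84 and 4.99 CPM in MI-503 and 7.01, 5.47 and 4.61 CPM in the combination, and changed by -0.61 (SE 0.15, edgeR adjusted p = 0.00235) with MI-503. Its MI-503 libraries lay below all DMSO libraries, and the combination overlapped both groups. LINC00680 (chr6:57945834-57961446, minus strand) was at 9.99, 9.37, 9.34 and 7.88 CPM in DMSO, 6.06, 6.05, 5.99 and 6.26 CPM in MI-503 and 7.46, 9.98 and 9.93 CPM in the combination. Its MI-503 libraries lay below all others, with -0.59 (SE 0.11, edgeR adjusted p = 0.000212) against DMSO and -0.02 (SE 0.11, edgeR adjusted p = 0.858) for the combination against DMSO. Of its exon bases, 21.9% coincide with those of other genes, and 14.7% of its windows recur. LINC01679 and LINC00431 had the least secure of these falls, -0.64 (SE 0.24, adjusted p = 0.0324) and -0.50 (SE 0.17, adjusted p = 0.0196) by edgeR. The first call was lost without DMSO replicates 1 or 2 or combination replicate 2 or MI-503 replicates 2 or 4 (adjusted p from 0.0502 to 0.126). It was also lost with upper-quartile factors, with DESeq2 and with no filter on low counts. The second call was lost with DESeq2 and with no filter on low counts, where adjusted p ran up to 0.0909.

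Adding PR-957 to MI-503 moved as many members up as down. Against MI-503 alone, 48 members (31.8%) passed the test, against 47.4% of all genes. In the combination 24 members (15.9%) were higher and 24 (15.9%) lower, with 23.6% and 23.8% among all genes. Changes of at least 2-fold were seen in 7 higher and 3 lower members (3.07% and 1.4% of all genes), and in 3 and 2 of the 133 members at or above 0.5 CPM in each group mean. The libraries of both groups stayed apart for 29 higher and 25 lower members (23.8% and 23.7%). The median log2 fold change of the members was 0.02, with 0.0041 over all genes, and turned to -0.03 without combination replicate 2 and to -0.02 without replicate 4, where that of all genes was -0.03 and -0.04. Among the 133 members at or above 0.5 CPM in each group mean, 19 were higher and 23 lower. The 43 members with a mean of at least 5 CPM gave 9 higher and 13 lower, and the 108 below it 15 and 11.

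The 8 largest rises with added PR-957 were in members that stood highest in the combination. The ranking took only called members with every combination library above every MI-503 library, so that separation was set by the rule. Every combination library also lay above every DMSO library for all 8, and all 8 passed the test against DMSO too. None of the 8 passed it for MI-503 against DMSO. Log2 fold changes there ran from -0.16 for LINC01012 to 1.14 for LINC02608 (edgeR adjusted p = 0.0596), with 0.90 for LINC00665 and 0.55 for LINC01504. In 7 of the 18 alternative settings that gave it a value, LINC02608 did pass for MI-503 against DMSO. The MI-503 libraries enter both comparisons, so the values are given side by side.

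LINC02608 (chr1:212213002-212285021, minus strand) showed the largest rise of all members. It stood at 0.236, 0.0459, 0.0474 and 0.332 CPM in DMSO, 0.463, 0.465, 0.330 and 0.246 CPM in MI-503 and 2.41, 1.51 and 1.67 CPM in the combination, which is 1 to 7 counts per DMSO library and 30 to 102 per combination library. The change was 2.32 (SE 0.32, edgeR adjusted p = 1.59e-05) against MI-503, 3.45 (SE 0.38, edgeR adjusted p = 4.26e-07) against DMSO, and 1.14 (SE 0.48, edgeR adjusted p = 0.0596) for MI-503 against DMSO. The gene it starts head to head with, 389 bases away, is PPP2R5A, a regulatory subunit of the phosphatase PP2A. PPP2R5A averaged 91.0 ± 3.03 CPM over 4 DMSO libraries, 91.2 ± 1.27 CPM over 4 MI-503 libraries and 87.0 ± 3.49 CPM over 3 combination libraries (mean ± SD), with a change of -0.07 (SE 0.04, edgeR adjusted p = 0.226).

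LINC02561 (chr10:5265989-5271236, minus strand) was at 0.338, 0.368, 0.427 and 0.285 CPM in DMSO, 0.324, 0.349, 0.413 and 0.205 CPM in MI-503 and 1.35, 1.30 and 1.12 CPM in the combination. No combination library overlapped the rest, and the change was 1.94 (SE 0.25, edgeR adjusted p = 7.77e-06). LINC02608, LINC02561 and LINC00665 were under 0.5 CPM in the means of both other groups, and are members through the combination. By column totals, LINC01504 and LINC01011, described below, were under 0.5 CPM in the DMSO mean, and so are members through their treated libraries. LINC01012 (chr6:27694035-27710222, plus strand), more abundant, was at 1.86, 1.75, 1.33 and 1.99 CPM in DMSO, 1.57, 1.92, 1.65 and 0.983 CPM in MI-503 and 4.32, 4.31 and 3.87 CPM in the combination, with a change of 1.42 (SE 0.18, edgeR adjusted p = 6.7e-06). LINC02604 (chr7:66904120-66906297, plus strand), a single exon block, was at 3.34, 3.54, 4.27 and 2.85 CPM in DMSO, 4.12, 3.72, 3.47 and 3.44 CPM in MI-503 and 8.31, 10.3 and 7.37 CPM in the combination, with a change of 1.22 (SE 0.14, edgeR adjusted p = 1.8e-06). For both, the combination libraries lay above all others, and LINC02604 averaged 3.50 ± 0.590 CPM over 4 DMSO libraries, 3.69 ± 0.315 CPM over 4 MI-503 libraries and 8.67 ± 1.52 CPM over 3 combination libraries (mean ± SD). TMEM248, the coding gene nearest to LINC02604, changed by 0.01 (SE 0.05, edgeR adjusted p = 0.862).

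LINC00665 and LINC01534 lie less than a megabase apart among zinc finger genes of chromosome 19. LINC00665 (chr19:36313061-36331718, minus strand) was at 0.371, 0.184, 0.142 and 0.190 CPM in DMSO, 0.417, 0.814, 0.206 and 0.205 CPM in MI-503 and 0.850, 1.15 and 1.15 CPM in the combination, with a change of 1.22 (SE 0.37, edgeR adjusted p = 0.0121). MI-503 replicate 2 stood above the rest of its group, and without it the change was 1.91 (adjusted p = 0.000522). LINC01534 (chr19:36685439-36687449, minus strand) was at 1.82, 2.21, 2.13 and 2.04 CPM in DMSO, 2.18, 2.99, 2.15 and 2.13 CPM in MI-503 and 4.84, 5.92 and 4.13 CPM in the combination, with a change of 1.04 (SE 0.16, edgeR adjusted p = 4e-05). Exons of other genes cover 28.6% of its exon bases, and its span overlaps that of ZNF567 on the opposite strand, which changed by 0.06 (SE 0.07, edgeR adjusted p = 0.523).

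LINC01504 and LINC01011 rose together with the coding gene beside them. LINC01504 (chr9:72305436-72343210, plus strand) was at 0.574, 0.230, 0.285 and 0.569 CPM in DMSO, 0.648, 0.494, 0.785 and 0.614 CPM in MI-503 and 0.968, 1.61 and 1.41 CPM in the combination, with a change of 1.03 (SE 0.28, edgeR adjusted p = 0.00589). Its neighbor at 8203 bases is ZFAND5, a ubiquitin-binding zinc finger protein that acts with the proteasome. ZFAND5 averaged 73.7 ± 3.34 CPM over 4 DMSO libraries, 78.2 ± 1.68 CPM over 4 MI-503 libraries and 150.0 ± 4.19 CPM over 3 combination libraries (mean ± SD), a rise of 0.94 (SE 0.04, edgeR adjusted p = 5.31e-11) against MI-503. LINC01011 (chr6:2987967-2991171, plus strand) was at 0.675, 0.459, 0.379 and 0.522 CPM in DMSO, 0.741, 0.639, 0.826 and 0.573 CPM in MI-503 and 1.39, 1.45 and 1.30 CPM in the combination, with a change of 1.00 (SE 0.22, edgeR adjusted p = 0.00112). Its neighbor at 8645 bases is NQO2, a quinone reductase. NQO2 averaged 9.65 ± 1.16 CPM over 4 DMSO libraries, 12.3 ± 1.14 CPM over 4 MI-503 libraries and 29.5 ± 1.71 CPM over 3 combination libraries (mean ± SD), a rise of 1.26 (SE 0.09, edgeR adjusted p = 8.5e-09).

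A promoter window was matched for 6 of these 8 members, and all 6 are shown because their RNAs rose together with added PR-957 (RefSeq, GRCh38.p14). They lie at chr1:212284972-212285271, minus strand (LINC02608), chr10:5271187-5271486, minus strand (LINC02561), chr6:27693785-27694084, plus strand (LINC01012), chr7:66903870-66904169, plus strand (LINC02604), chr19:36331704-36332003, minus strand (LINC00665) and chr9:72305186-72305485, plus strand (LINC01504). Capitals mark the same 6 motifs.
LINC02608: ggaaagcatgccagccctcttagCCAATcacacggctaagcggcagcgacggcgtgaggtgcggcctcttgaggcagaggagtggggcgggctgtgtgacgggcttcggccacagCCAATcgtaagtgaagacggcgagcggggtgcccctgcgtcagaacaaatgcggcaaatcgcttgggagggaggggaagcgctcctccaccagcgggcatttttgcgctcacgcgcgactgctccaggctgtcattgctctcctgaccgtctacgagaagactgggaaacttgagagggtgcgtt
LINC02561: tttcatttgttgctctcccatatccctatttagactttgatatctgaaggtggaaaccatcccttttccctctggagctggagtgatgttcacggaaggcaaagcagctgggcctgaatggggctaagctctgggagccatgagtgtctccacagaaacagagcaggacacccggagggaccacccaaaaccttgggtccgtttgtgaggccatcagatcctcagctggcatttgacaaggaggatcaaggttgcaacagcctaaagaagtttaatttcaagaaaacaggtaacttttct
LINC01012: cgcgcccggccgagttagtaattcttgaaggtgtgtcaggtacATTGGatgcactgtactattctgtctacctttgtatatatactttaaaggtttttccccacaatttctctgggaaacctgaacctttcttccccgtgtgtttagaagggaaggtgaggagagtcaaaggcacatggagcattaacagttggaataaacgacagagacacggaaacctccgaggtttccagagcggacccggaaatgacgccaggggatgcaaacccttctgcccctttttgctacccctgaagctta
LINC02604: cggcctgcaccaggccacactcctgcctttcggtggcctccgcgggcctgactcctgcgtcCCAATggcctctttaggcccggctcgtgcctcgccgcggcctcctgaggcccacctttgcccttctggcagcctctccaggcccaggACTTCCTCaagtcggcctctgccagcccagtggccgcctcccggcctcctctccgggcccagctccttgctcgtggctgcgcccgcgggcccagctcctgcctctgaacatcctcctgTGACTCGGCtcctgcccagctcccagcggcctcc
LINC00665: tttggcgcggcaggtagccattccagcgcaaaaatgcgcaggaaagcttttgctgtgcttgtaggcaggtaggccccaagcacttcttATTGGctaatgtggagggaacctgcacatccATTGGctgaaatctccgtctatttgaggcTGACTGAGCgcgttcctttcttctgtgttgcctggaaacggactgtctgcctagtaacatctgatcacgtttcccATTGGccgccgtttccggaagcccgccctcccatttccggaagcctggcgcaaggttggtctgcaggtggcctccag
LINC01504: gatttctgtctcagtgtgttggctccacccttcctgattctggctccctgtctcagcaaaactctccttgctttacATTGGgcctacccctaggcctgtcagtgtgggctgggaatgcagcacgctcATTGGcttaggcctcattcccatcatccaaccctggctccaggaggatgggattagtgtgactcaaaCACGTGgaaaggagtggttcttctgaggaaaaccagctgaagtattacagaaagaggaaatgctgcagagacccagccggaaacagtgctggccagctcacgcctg
The window of LINC02561 holds none of the 6 motifs. The other 5 hold CCAAT, at -227 and -135 in LINC02608 and at -189 in LINC02604. On the opposite strand it is at -207 in LINC01012, at -162, -131 and -27 in LINC00665 and at -174 and -123 in LINC01504. Position -1 is the last base before the start, and positions give the leftmost base of a match. The RefSeq start of LINC00665 lies 35 bases from that of the counting annotation. TGACNNNGC is in LINC02604, at 17 bases into the transcript, and in LINC00665, at -102. CACGTG is in LINC01504 at -56, and GAGGAAGT in LINC02604 at -102 on the opposite strand. A promoter window was matched by symbol for 89 of 151 members, with a median GC content of 58.0% (58.3% over all windows). Of these, 47.2% hold CCAAT and 20.2% TGACNNNGC, against 35.7% and 13.6% of all windows, and among the 14 matched members that were higher in the combination than in MI-503 7 hold CCAAT and 4 hold TGACNNNGC. Among the 18 matched members that were lower, 8 and 5 hold them. CACGTG is in 7.87% of matched members and 7.41% of all windows, CCGGAAGT in 5.62% and 4.42%, GAGGAAGT in 4.49% and 2.52%, and TTGCNNAA in 10.1% and 10.6%. A match in these letters is a description and not a bound site.

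Of the 8 largest falls from MI-503 to the combination, 5 (LINC01521, LINC02169, LINC02593, LINC00977 and LINC00539) were in members that were higher in MI-503 than in DMSO. Their levels are given for the 3 groups together, since the MI-503 libraries are shared by both comparisons. LINC01521 (chr22:31346759-31351155, plus strand), which starts 413 bases head to head from the zinc finger gene PATZ1, was at 5.77, 5.47, 4.13 and 5.46 CPM in DMSO, 6.25, 8.05, 7.60 and 6.63 CPM in MI-503 and 3.80, 3.81 and 3.91 CPM in the combination. Its 3 combination libraries lay below all others, and the change was -0.90 (SE 0.13, edgeR adjusted p = 2.23e-05) against MI-503 and -0.45 (SE 0.13, edgeR adjusted p = 0.00724) against DMSO. PATZ1 changed by -0.03 (SE 0.05, edgeR adjusted p = 0.64) against MI-503.

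LINC02169 (chr16:54245544-54270879, minus strand) had the largest fall with added PR-957. It was at 1.55, 2.21, 1.99 and 1.76 CPM in DMSO, 1.90, 2.47, 3.51 and 2.702 CPM in MI-503 and 1.32, 0.903 and 0.967 CPM in the combination, with a change of -1.26 (SE 0.22, edgeR adjusted p = 0.000165). IRX3, a homeobox gene 12425 bases away on the same strand, averaged 310.1 ± 12.99 CPM over 4 DMSO libraries, 290.3 ± 19.3 CPM over 4 MI-503 libraries and 165 ± 18.3 CPM over 3 combination libraries (mean ± SD). It changed by -0.82 (SE 0.07, edgeR adjusted p = 5.53e-08) against MI-503. LINC02593 (chr1:916818-919692, minus strand) was at 1.92, 3.22, 3.42 and 1.61 CPM in DMSO, 4.44, 4.10, 4.50 and 4.22 CPM in MI-503 and 3.12, 2.16 and 1.93 CPM in the combination, with a change of -0.80 (SE 0.21, edgeR adjusted p = 0.00534). SAMD11, 6039 bases from it, changed by -0.98 (SE 0.13, edgeR adjusted p = 1.28e-05). The call of LINC02169 for MI-503 against DMSO, 0.51 (SE 0.19, adjusted p = 0.0361) by edgeR, was lost without DMSO replicates 1, 3 or 4 or MI-503 replicates 3 or 4 (adjusted p from 0.0534 to 0.142).

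LINC00977 (chr8:129216467-129241240, minus strand) was at 1.32, 1.75, 1.14 and 1.04 CPM in DMSO, 2.41, 2.12, 1.86 and 2.33 CPM in MI-503 and 1.04, 1.20 and 1.71 CPM in the combination, with a change of -0.74 (SE 0.21, edgeR adjusted p = 0.00776). LINC00539 (chr13:21303512-21344859, minus strand) was at 0.675, 1.01, 0.711 and 0.522 CPM in DMSO, 1.71, 1.28, 1.16 and 1.31 CPM in MI-503 and 0.968, 0.853 and 0.484 CPM in the combination, with a change of -0.78 (SE 0.26, edgeR adjusted p = 0.0184). For both the combination was near the DMSO level, with -0.02 (SE 0.23, adjusted p = 0.953) and 0.11 (SE 0.29, adjusted p = 0.759) against DMSO by edgeR. LINC01237 (chr2:241881363-242078722, plus strand) had a change of -1.07 (SE 0.29, edgeR adjusted p = 0.00567), but 100% of its exon windows recur in the genome and it lies on 4 contigs of hg38, so its counts are uncertain. LINC00345 (chr13:52483687-52601006, minus strand) was at 0.405, 0.781, 0.474 and 0.522 CPM in DMSO, 0.833, 0.668, 0.578 and 0.491 CPM in MI-503 and 0.283, 0.301 and 0.298 CPM in the combination, with a change of -1.12 (SE 0.31, edgeR adjusted p = 0.00726), with 6 to 12 counts per combination library. It was under 0.5 CPM in the combination mean, and is a member through the other groups. LINC01121 (chr2:45174341-45254941, minus strand) was at 1.01, 1.52, 1.23 and 1.85 CPM in DMSO, 0.833, 0.814, 1.16 and 0.942 CPM in MI-503 and 0.543, 0.652 and 0.484 CPM in the combination, with a change of -0.75 (SE 0.27, edgeR adjusted p = 0.0292). The calls in the combination against MI-503 were lost for LINC00539 without combination replicate 4 or MI-503 replicate 1 (adjusted p from 0.0553 to 0.0709) and LINC01121 without combination replicates 1 or 4 or MI-503 replicates 3 or 4 (adjusted p from 0.052 to 0.0842). The call of LINC01121 was also lost with DESeq2 (adjusted p = 0.0523).

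The combination against DMSO called the most members. Of 151, 83 (55.0%) passed the test, against 64.5% of all genes. The combination was higher for 58 (38.4%) and lower for 25 (16.6%), with 31.7% and 32.8% among all genes. Changes reached 2-fold in 25 higher and 3 lower members (8.54% and 3.34% of all genes), of which 17 and 2 were among the 133 members at or above 0.5 CPM in each group mean. The libraries of both groups stayed apart for 52 and 23 (29.3% and 31.2%). The median log2 fold change was 0.26 over members and 0.01 over all genes, and 98 members were above 0. Among the 133 members at or above 0.5 CPM in each group mean, 49 were higher and 23 lower. By position, the 76 members with no overlapping or head to head gene gave 34 higher and 14 lower, the 19 head to head members 8 and 2, the 43 that overlapped a gene on the opposite strand 14 and 7, and the 13 that overlapped a gene on the same strand 2 and 2.

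In this comparison 2 further members were among the 8 largest rises, LINC00324 and LINC00663, and both rose at each step. LINC00324 (chr17:8220630-8224043, minus strand) was at 0.608, 0.781, 0.854 and 0.522 CPM in DMSO, 1.53, 1.80, 1.24 and 1.23 CPM in MI-503 and 3.54, 1.91 and 1.79 CPM in the combination. It rose by 1.86 (SE 0.27, edgeR adjusted p = 1.3e-05) against DMSO and by 1.09 (SE 0.28, edgeR adjusted p = 0.00382) with MI-503 alone. The step from MI-503 to the combination rested on 1 library, since it went from 0.77 (edgeR adjusted p = 0.0135) to 0.30 (adjusted p = 0.292) without combination replicate 1. CTC1, a telomere maintenance gene 772 bases away, rose by 0.62 (SE 0.07, edgeR adjusted p = 2.49e-07) against DMSO. LINC00663 (chr19:19756371-19776413, minus strand), head to head with ZNF56, was at 0.473, 1.06, 0.664 and 0.996 CPM in DMSO, 1.90, 1.86, 1.07 and 1.56 CPM in MI-503 and 2.67, 3.76 and 2.38 CPM in the combination, with a change of 1.89 (SE 0.26, edgeR adjusted p = 7.03e-06). Its step from MI-503 to the combination, 0.84 (SE 0.23, adjusted p = 0.0063) by edgeR, was lost without combination replicate 2 (adjusted p = 0.0527).

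Among the named members, LINC00987, LINC01465, LINC01686 and LINC00345 fell against DMSO in the combination without having passed the test for MI-503 against DMSO. LINC01003, described above, was another such member. LINC00987 (chr12:9240003-9262877, plus strand) was at 5.16, 3.63, 4.36 and 4.84 CPM in DMSO, 2.92, 4.62, 3.76 and 3.64 CPM in MI-503 and 2.81, 2.66 and 2.38 CPM in the combination, with a change of -0.78 (SE 0.16, edgeR adjusted p = 0.000488). LINC01465 (chr12:62601751-62603434, minus strand) was at 1.22, 0.827, 1.09 and 0.996 CPM in DMSO, 1.02, 0.727, 0.743 and 0.655 CPM in MI-503 and 0.590, 0.753 and 0.409 CPM in the combination, with a change of -0.85 (SE 0.26, edgeR adjusted p = 0.00799), while the coding gene MON2, 1275 bases away, rose by 0.33 (SE 0.05, edgeR adjusted p = 1.19e-05). LINC01686 (chr1:182615140-182616629, plus strand) was at 1.01, 0.873, 1.28 and 0.996 CPM in DMSO, 0.463, 1.16, 0.908 and 1.11 CPM in MI-503 and 0.378, 0.853 and 0.409 CPM in the combination, with a change of -1.03 (SE 0.33, edgeR adjusted p = 0.0119). RGS16, a regulator of G protein signaling 10751 bases away, averaged 40.1 ± 5.52 CPM over 4 DMSO libraries, 16.2 ± 0.883 CPM over 4 MI-503 libraries and 11.3 ± 1.43 CPM over 3 combination libraries (mean ± SD). It changed by -1.85 (SE 0.11, edgeR adjusted p = 1.56e-10) against DMSO. LINC00345 changed by -0.87 (SE 0.33, edgeR adjusted p = 0.0284). LINC01121 changed by -0.57 (SE 0.22, edgeR adjusted p = 0.0392) with MI-503, a call lost without DMSO replicates 2 or 4 or combination replicates 1, 2 or 4 or MI-503 replicates 1, 2 or 4 (adjusted p from 0.0533 to 0.15), and also with DESeq2, limma-voom, upper-quartile factors, no filter and the compared groups only. It changed by -1.32 (SE 0.26, edgeR adjusted p = 0.000238) against DMSO. Calls in this comparison were lost for LINC01686 without combination replicate 1 (adjusted p = 0.0725) and LINC00345 without DMSO replicate 2 or combination replicates 1, 2 or 4 (adjusted p from 0.051 to 0.116). The call of LINC00345 was also lost with DESeq2 and with no filter on low counts.

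The changes of each member and of its nearest tested protein-coding gene were set side by side. For 46 members that gene lay within 10 kb without overlap. With MI-503 against DMSO, both were called higher in 6 of these pairs, both lower in 6 and opposite in 2. The combination against DMSO gave 14, 5 and 4, and the combination against MI-503 gave 5, 3 and 1. Among the 93 pairs beyond 10 kb the same counts were 10, 5 and 6, then 11, 7 and 16, and then 2, 5 and 6. Across the 46 pairs, Spearman's rho between the log2 fold changes was 0.55 for MI-503 against DMSO, 0.53 for the combination against DMSO and 0.39 for the combination against MI-503. For the pairs beyond 10 kb, which include 87 different coding genes, it was 0.28, 0.14 and 0.07. Among the 12 pairs that overlapped it was -0.17, -0.04 and -0.24. These are descriptions across genes, which are not independent replicates, and both members of a pair were measured in the same libraries. Of the 46 coding genes within 10 kb, 12 were called higher and 16 lower with MI-503 against DMSO. The combination gave 17 and 19 against DMSO and 13 and 10 against MI-503. Over all protein-coding genes tested, 22.9% were called higher and 35.0% lower with MI-503 against DMSO. The combination gave shares of 31.9% and 37.9% against DMSO and 25.8% and 27.4% against MI-503. Adjacent genes outside the LINC class were not compared, so whether these counts are particular to LINC RNAs was not tested. Pairs in which the coding gene did not rise with the member included LINC02608 with PPP2R5A and LINC00926 with TCF12, both described above. Beyond 10 kb, LINC01694 and SLC19A1 changed by 1.36 and -0.36 with MI-503 against DMSO. LINC02806 and NBPF11 changed by -3.17 and 0.51 in the combination against DMSO. LINC02561 and NET1 changed by 1.94 and -0.39 in the combination against MI-503. In these 3 pairs both genes were called, in opposite directions.

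**Figure D4:**
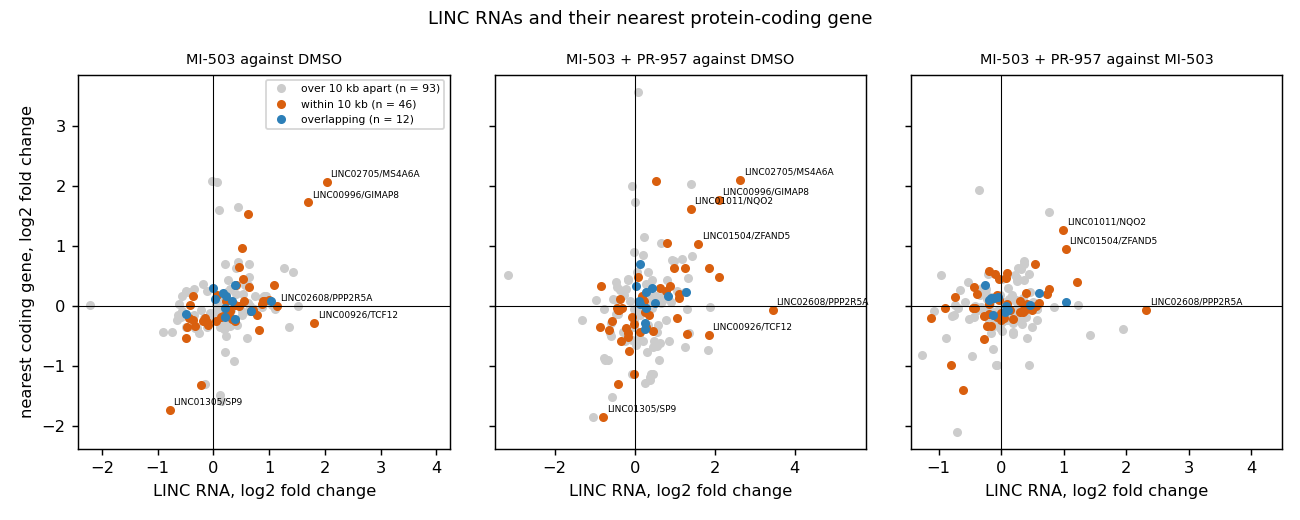
Log2 fold change of each LINC RNA (horizontal) and of its nearest tested protein-coding gene (vertical), 1 point per member, in 3 comparisons and coloured by the distance between the 2 genes. LINC02705 with MS4A6A and LINC00996 with GIMAP8 lie high on both axes against DMSO, LINC01011 with NQO2 and LINC01504 with ZFAND5 in the combination, and LINC02608 and LINC00926 lie far to the right against DMSO while their neighbors are near or below 0.

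Other classes of noncoding RNA, taken by symbol with the same 0.5 CPM limit, were split as follows. With MI-503 against DMSO, 16.5% of 322 antisense-named RNAs were higher and 11.2% lower, 28.6% and 4.76% of 42 divergent-named RNAs, and 21.4% and 7.29% of 960 LOC genes, which are loci not yet named. Of 23 small nucleolar RNA host genes (SNHG), 3 were higher and 6 lower, and of 14 microRNA host genes 3 were higher and 6 lower. With the combination against DMSO, 34.6% of LOC genes were higher and 11.98% lower, 27.3% and 20.8% of antisense-named RNAs and 26.2% and 14.3% of divergent-named RNAs, and SNHG genes gave 7 higher and 11 lower. Of the calls of LOC genes, 74.5% were higher with MI-503 and 74.3% with the combination, and of those of LINC RNAs 70.8% and 69.9%. Protein-coding genes gave 22.9% higher and 35.0% lower with MI-503, at a median level of 31.9 CPM. The classes differ in level and number, and the differences between them were not tested.

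**Figure D5:**
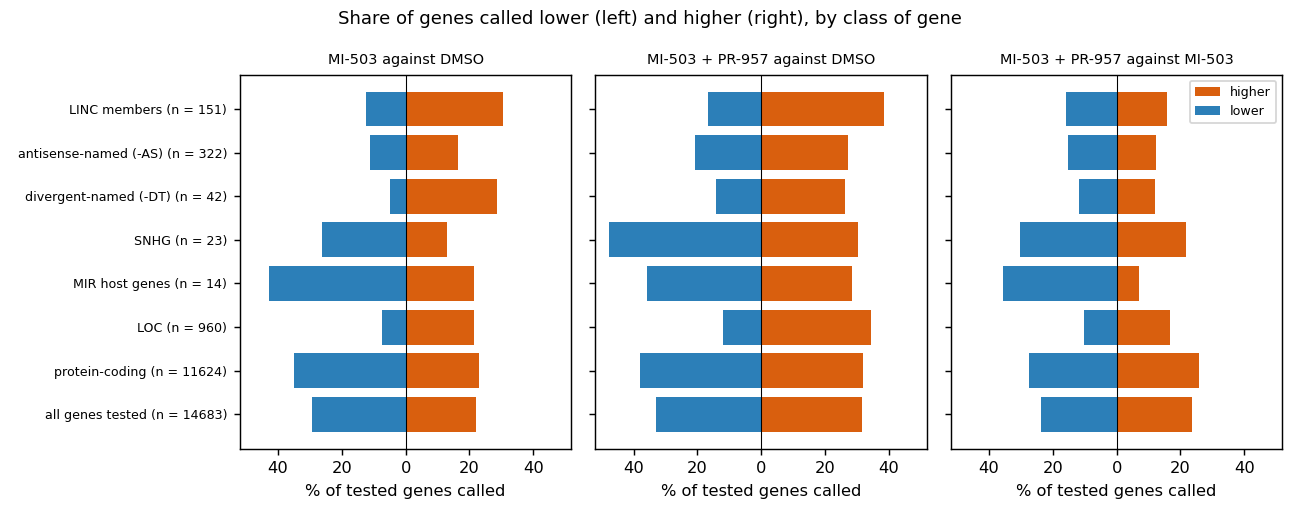
Percentage of tested genes called lower (bars to the left of 0) and higher (bars to the right) at an edgeR adjusted p under 0.05, by class of gene, with the number of genes beside each class. LINC RNAs have 30.5% higher and 12.6% lower in MI-503 against DMSO, and 15.9% each way in the combination against MI-503.

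Of a list of widely studied long noncoding RNAs outside the LINC class, 35 were tested. They gave 10 higher and 10 lower with MI-503, 16 and 11 with the combination, and 14 and 11 in the combination against MI-503. Per length, GAS5, SNHG29 and SNHG6 led with 427, 416 and 347 RPKM, far above the highest LINC RNA. The smallest adjusted p belonged to NORAD, MALAT1 and SNHG16. NORAD, a cytoplasmic RNA that binds Pumilio proteins, had means of 174, 218 and 370.1 CPM in DMSO, MI-503 and the combination, and rose in the last against MI-503 by 0.76 (SE 0.05, edgeR adjusted p = 1.43e-09). MALAT1, a nuclear speckle RNA, had 15.1, 18.9 and 71.9 CPM, and rose against MI-503 by 1.92 (SE 0.12, edgeR adjusted p = 1.43e-09). SNHG16 went down, from 86.4 to 48.9 CPM from DMSO to the combination, a change of -0.83 (SE 0.05, edgeR adjusted p = 7.6e-10).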

How the data were processed

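RNA of MOLM-13 cells had been sequenced as polyadenylated, paired-end libraries (TruSeq, NovaSeq). The count tables as deposited hold unnormalized fragment counts for each gene. Per the submitters' processing notes and the file headers, the authors used Trimmomatic 0.39, STAR 2.7.10a and featureCounts 2.0.1 on exons of the hg38 RefSeq annotation, without strand, and left out fragments that mapped to several places or to several genes. Alignments were also filtered (rule not given in the sources used here). Deposited tables of the authors' own DESeq2 comparisons (log2 fold changes, p-values) were not used.

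Counts were tested with edgeR 4.0.16 in R 4.3.3 (TMM, filterByExpr with a minimum count of 10 and a minimum total of 15, quasi-likelihood, 1 mean per group over 11 libraries, 8 residual degrees of freedom, two-sided). Benjamini-Hochberg adjustment ran over all 14683 tested genes, which included all 151 members, and "adjusted p" refers to this test. CPM are TMM-scaled, except where the membership limit uses column totals. RPKM used raw counts, exon lengths and column totals. Scripts were tested on simulated data. Alternatives were RLE and upper-quartile factors, other filters, DESeq2 1.42.0, limma-voom (limma 3.58.1), the compared groups only, a replicate block, an adjusted p under 0.01 and leaving out each library.

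Members and gene lists were chosen with earlier results of these data known. Named members were the 10 highest per length, the 8 largest rises and 8 largest falls per comparison among called members without overlap between groups, 3 on each side of the limit, and members with 1 library apart. The neighbor is the nearest tested protein-coding gene. Coordinates are those of hg38 in the count files, from the first to the last exon base. Intervals cover the spread between libraries, whose totals of 18891243 to 41153974 counts set the counting error.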

Additional observations from a re-analysis of the deposited data

Results flagged for a closer look

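In groups of 4 libraries, the highest or lowest value of a member was compared with the others by Dixon's ratio. Of 302 such groups, 13 (4.30%) had a library past the 95% critical value, and chance flags about 1 in 20 groups. DMSO replicate 3 and MI-503 replicate 1 were the library apart in 4 each.

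Among the named members, DMSO replicate 3 was the highest DMSO library for LINC01138 (16.7 CPM, with 13.7, 13.8 and 13.7 CPM in the others), LINC00565 (4.03 CPM, with 2.84, 2.76 and 2.85) and LINC01451 (1.61 CPM, with 0.776, 0.873 and 0.854). It was the lowest for LINC01954 (0.332 CPM, with 0.641, 0.597 and 0.617). In the MI-503 group, LINC00667 was lowest in replicate 1 (38.2 CPM, with 42.6, 42.6 and 42.2), LINC01534 was highest in replicate 2 (2.99 CPM, with 2.18, 2.15 and 2.13) and LINC00174 was lowest in replicate 4 (7.82 CPM, with 8.66, 8.72 and 8.67). Without DMSO replicate 3, LINC01138 and LINC01451 kept their calls for MI-503 against DMSO. LINC00565, LINC01954 and LINC00174 passed the test in none of the 3 comparisons.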

How the results depend on the processing

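No called value of a named member changed direction under any alternative that gave it a value. Of the values of named members under the alternatives, 2761 stayed on their side of the threshold, 123 lost a call and 61 gained one. Counts of called members stayed within 1.5 times their value except at an adjusted p under 0.01, where lower calls went to 15 in the combination against DMSO and to 13 in the combination against MI-503. Upper-quartile scaling moved the median log2 fold change to 0.28 for MI-503 against DMSO and 0.33 for the combination against DMSO, and a filter of a mean of at least 1 CPM moved them to 0.28 and 0.30. In the combination against MI-503 the median lay near 0 and changed sign with that filter (-0.0016), without combination replicate 2 (-0.0276) and without combination replicate 4 (-0.022). The median of all genes was below 0 in these settings too (-0.02, -0.03 and -0.04). The causes were not tested.

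Leaving out each library gave 42 to 63 higher and 16 to 18 lower members for MI-503 against DMSO, 50 to 61 and 19 to 24 for the combination against DMSO, and 20 to 26 and 18 to 26 for the combination against MI-503. The medians ran from 0.20 to 0.26, from 0.23 to 0.32 and from -0.0276 to 0.0643. In the last set the groups left with 2 combination libraries share the spread of the others. The 2 further alternatives were chosen after seeing the data, keeping members with at most 10% recurring windows or members at or above 0.5 CPM in each group mean. Medians then ran from 0.20 to 0.22, 0.23 to 0.26 and 0.01 to 0.06.

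Whether replicate numbers shared between groups mark pairs was not settled. The deviations of same-numbered libraries correlated between -0.147 and 0.184, and those of differently numbered libraries between -0.197 and 0.175. Such ranges cannot exclude a weak pairing. A replicate block gave 49 higher and 18 lower members for MI-503 against DMSO, 55 and 21 for the combination against DMSO and 21 and 22 for the combination against MI-503, with medians of 0.21, 0.26 and 0.02. With the block LINC01138, LINC01121 and LINC01686 lost their call in the combination against MI-503 (log2 fold changes of -0.20, -0.68 and -0.75) and LINC00431 in the combination against DMSO (-0.43). LINC00963 and LINC02608 gained a call for MI-503 against DMSO (0.19 and 1.21) and LINC00565 for the combination against DMSO (0.40). For MI-503 against DMSO, 39 of 108 members under 5 CPM were called and 26 of 43 at or above it, and what part depth had in this was not tested.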
